A study of Homo sapiens with 9 samples.

Results

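M1B26, a transformed derivative of the human mammary epithelial line MCF10A, was compared with the untreated parental line, called CT. The comparison used the 3 M1B26 and the 3 CT libraries, 6 of the 9 libraries of the series, and every gene that passed an expression filter, which left 15717 of the 29997 genes with at least 1 count. MCF10A is a non-malignant, immortal line that lacks CDKN2A and carries extra copies of MYC, and all groups share that background. CT cells grew in a medium with horse serum, insulin, hydrocortisone, cholera toxin and EGF. M1B26 began as the BMPR1B-positive fraction of a sort of MCF10A, BMPR1B being a receptor of BMP2; these cells were exposed to BMP2 and IL6, picked as soft-agar clones and then grown with BMP2 and IL6. The sources used here do not say whether the 3 M1B26 libraries are 3 clones or 3 cultures of a pool. Sorting, cloning, time in culture and the cytokines all set M1B26 apart from CT and cannot be told apart here. MC26 came from unsorted cells under the same cytokines, with no cloning step given and perhaps another length of exposure, so the lines differ in more than the sort. It supplied the other 3 libraries and is used only where a value of M1B26 is set beside it.

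BMP2 signals through BMPR1A or BMPR1B with BMPR2 to SMAD proteins, which switch on the ID genes and their own inhibitors. IL6 signals through IL6R and IL6ST (gp130) to STAT3, which switches on its inhibitor SOCS3. In the breast, basal cells carry keratins 5 and 14 and the transcription factor p63, while luminal cells carry keratins 8 and 18. MCF10A cells in culture show a mostly basal pattern.

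Total counts ranged from 21425118 to 80076597 in CT and from 43642934 to 55048760 in M1B26, and CT replicate 2 was the shallowest library. Between replicates, 2 to 27 of 10637 well-counted genes differed 2-fold in CT and 9 to 37 in M1B26. The study's design text calls the cultures independent but does not say how, so p-values measure only the spread between these samples. Of the leukocyte markers listed, 13 of 15 were too low to test, and PTPRC, NKG7, CD2, CD3E and MS4A1 had 0 to 2 counts in every library. The summed level of that list was 11.9 to 17.3 CPM (read counts scaled to a common library size) in CT and 39.4 to 54.9 CPM in M1B26, nearly all from CD14 and CSF1R.

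At an adjusted p under 0.05 in edgeR's quasi-likelihood test, 7688 genes differed, which is 48.9% of those tested. Of these, 3959 genes (25.2%) were higher and 3729 (23.7%) were lower in M1B26, and 946 (6.02%) and 897 (5.71%) of them changed at least 2-fold. The median log2 fold change of all tested genes was 0.00. When libraries were scaled by total counts alone, that median became -0.09 and 39.6% of the calls were higher, against 51.5% with TMM scaling. With so many calls, a share of members is read below against 25.2% higher and 23.7% lower.

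Among protein-coding genes at 5 CPM or more whose groups did not overlap, 283 rose and 288 fell at least 2-fold. Groups did not overlap for 59.0% of all tested genes. ALDH1A1, a retinaldehyde dehydrogenase used as a stem cell marker in the breast, had no count in any CT library and stood at 10.6, 20.1 and 6.19 CPM in M1B26. SAMSN1, an adaptor protein of lymphoid and myeloid cells, read 0.10, 0.175 and 0.146 CPM in CT and 61.9, 75.5 and 70.6 CPM in M1B26, or 9.01 higher on the log2 scale (SE 0.34), at an edgeR adjusted p of 3.31e-08. Every M1B26 value lay above every CT value for both genes, as the rule that named them requires. CHRNA9, a nicotinic acetylcholine receptor subunit, went from 2.74, 3.23 and 3.56 CPM to 201, 232 and 221 CPM. LCP1, the actin-bundling L-plastin, went from 15.4, 18.3 and 15.2 CPM to 346, 351 and 315 CPM (log2 fold change 4.38, SE 0.09). CSF3, the granulocyte colony-stimulating factor G-CSF, rose by 3.87 on the log2 scale (SE 0.13), and GRAMD1B, a cholesterol transfer protein, by 3.77 (SE 0.19).

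Among the falls named by the same rule, PPL encodes periplakin, a linker between desmosomes and keratin, and read 129, 108 and 121 CPM in CT against 7.93, 6.08 and 11.4 CPM in M1B26. ETNK2, an ethanolamine kinase, read 82.2, 69.2 and 79.95 CPM in CT and 2.73, 3.88 and 4.75 CPM in M1B26. SCNN1B, a subunit of the epithelial sodium channel, fell from 46.7, 44.5 and 48.4 CPM to 1.38, 2.44 and 4.62 CPM. No M1B26 library reached the lowest CT library for any of these genes, as the rule requires. TJP3, the tight junction protein ZO-3, fell by 5.93 on the log2 scale (SE 0.39), VIPR1, a receptor for vasoactive intestinal peptide, by 5.25 (SE 0.25) and SYN3, a synapsin, by 5.57 (SE 0.51).

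**Figure D1:**
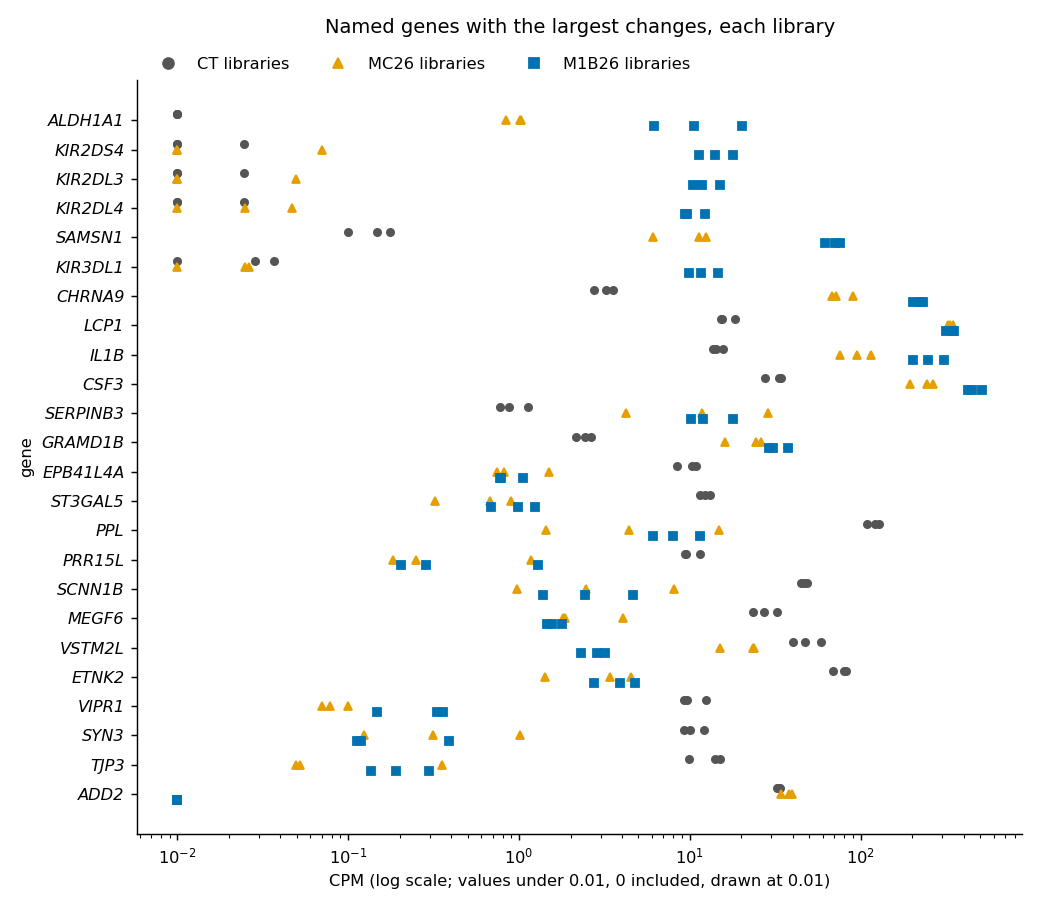
CPM (log axis) of the 12 highest and 12 lowest log2 fold changes under the naming rule, with 1 point per library for CT, MC26 and M1B26. CT and M1B26 points do not overlap in any row, which the rule requires, and ADD2 is at 0 in the 3 M1B26 libraries only.

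A block of immune receptor genes on chromosome 19 was read in M1B26 and hardly at all in the other lines. The killer cell immunoglobulin-like receptors (KIR) are surface receptors of natural killer cells that recognise HLA class I, and their genes lie side by side with nearly the same sequence. DNA methylation of the short region before each gene is known to decide which KIR a natural killer cell uses. In the reference, 150 bases before the start of KIR2DL3 (GRCh38.p14, chr19:54738363-54738512, plus strand) were identical to those of KIR3DL1 and KIR3DL2 at all 150 positions. The stretch before KIR2DL4 (chr19:54803460-54803609, plus strand) differs. They are shown because the genes behind both kinds of promoter were read in M1B26, with CG pairs in capitals, from RefSeq.
KIR2DL3: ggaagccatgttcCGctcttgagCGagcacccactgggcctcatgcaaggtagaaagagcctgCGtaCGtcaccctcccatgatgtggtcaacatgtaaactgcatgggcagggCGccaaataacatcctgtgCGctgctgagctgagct
KIR2DL4: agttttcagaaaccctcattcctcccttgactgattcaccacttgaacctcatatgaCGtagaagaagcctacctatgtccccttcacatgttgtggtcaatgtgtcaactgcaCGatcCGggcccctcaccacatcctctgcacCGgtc
Over the 250 bases before the start, the promoters of KIR2DL3 and KIR2DL4 were 63.2% identical, while those of KIR2DL3 and KIR3DL2 were 96.4% identical.

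The 10 KIR genes and pseudogenes together had 3, 0 and 11 counts in CT and 4, 3 and 6 counts in MC26. They had 2649, 3113 and 2834 counts in M1B26, a ratio to CT of 763 after scaling (95% interval 454 to 1396, exact, covering counting error only). KIR2DS4, an activating member, had 624, 753 and 612 counts in M1B26 and 0, 0 and 2 in CT (adjusted p 1.27e-07 by edgeR). KIR2DL3, an inhibitory member, had 520, 638 and 564 counts against 0, 0 and 2. KIR3DL1 had 513, 621 and 535 counts against 2, 0 and 3, and KIR2DL4 had 425, 518 and 506 against 0, 0 and 2. The values of single genes are uncertain, since near-identical copies can share reads, so the sum is the firmer value. KIR2DL1, KIR3DL2, the pseudogene KIR2DP1 and KIR3DL3, named after their values were seen, held 18 to 242 counts per M1B26 library.

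The block had edges. FCAR, the IgA receptor of myeloid cells, follows KIR3DL2 and had 142, 147 and 164 counts in M1B26, against 1, 0 and 0 in CT and 5, 9 and 9 in MC26. NCR1, the next gene, had at most 1 count in any library. On the other side the 15 LILR and LAIR genes, related receptors of leukocytes, had 2, 2 and 1 counts in M1B26 and 1, 0 and 5 in CT. CDC42EP5 lies beyond the LILR genes next to the KIR cluster, with only some of the 15 between them. It rose from 7, 3 and 15 counts to 50, 67 and 89. Its neighbour LENG9 had 432, 406 and 497 counts in M1B26 and 661, 151 and 735 in CT. Among tested genes in chromosome order, the 10 genes from CDC42EP5 to FCAR (chr19:54465026-54891420) formed the longest run called at least 2-fold higher. Other markers of natural killer cells differed among themselves. NKG7 and TYROBP had 0 counts in every library, and PRF1, GZMB and KLRD1 had at most 3. KLRC1, the receptor NKG2A, had 24, 28 and 25 counts in M1B26 and 6, 9 and 10 in CT, and NCAM1 (CD56) had 179, 219 and 337 against 38, 19 and 56. FCAR, CDC42EP5 and these markers were also named after values were seen.

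**Figure D2:**
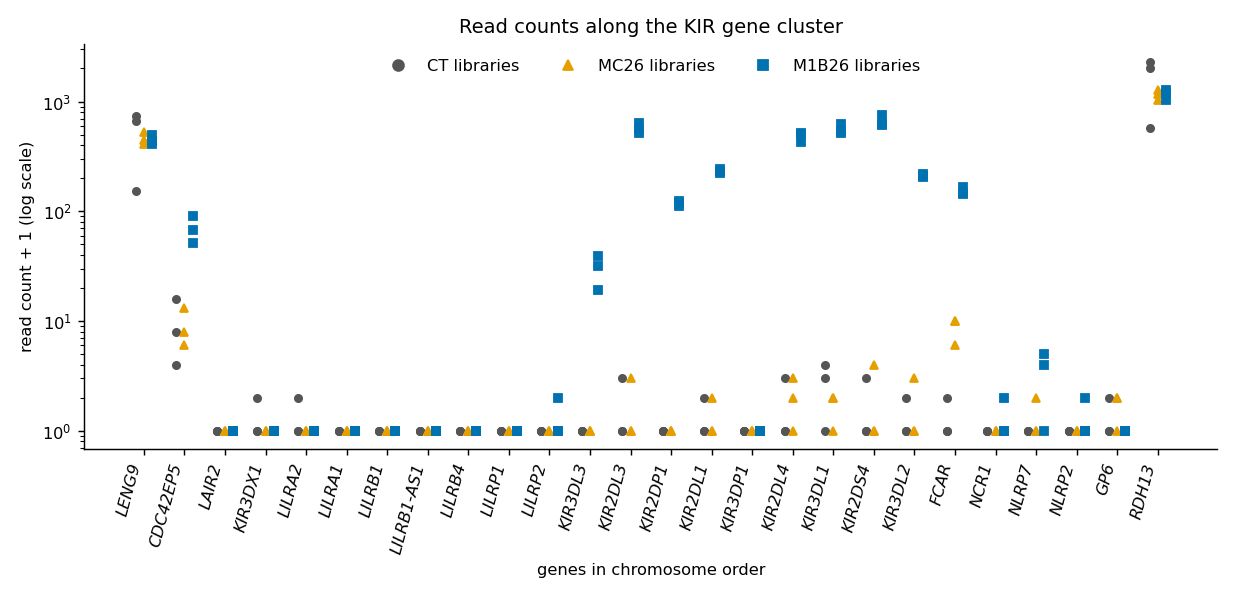
Read count plus 1 (log axis) of genes in chromosome order around the KIR cluster, with 1 point per library. M1B26 libraries stand between 18 and 753 counts from KIR3DL3 to FCAR, apart from the pseudogene KIR3DP1 at 0 (RNU6-222P, a small RNA gene at 0 counts in that stretch, is not drawn), and near 0 across the LILR genes.

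Several other genes were read in CT or in M1B26 but hardly in the other. With a limit of 3 counts in every library of a group and 1 CPM or more in the other, 22 genes were at the limit in CT and 15 in M1B26. The 22 include KIR genes and FCAR from the block described above. This limit was chosen after the data were seen. ALDH1A1, with 0 counts in every CT library, was at least 175-fold higher in M1B26, against the level of 3 counts per library. PHACTR1, a regulator of protein phosphatase 1 and actin, was at least 43.7-fold higher by the same bound, with 124, 105 and 212 counts in M1B26. ABCC9, the SUR2 subunit of potassium channels, had 220, 260 and 207 counts in M1B26 and 1, 0 and 1 in CT, a ratio of 427 (95% counting interval 118 to 3530). SLCO1B3, an organic anion carrier of the liver, had 334, 291 and 359 counts in M1B26 and 1, 2 and 0 in CT, a ratio of 407 (139 to 1979). Of the 22 genes, 9 were also at the limit in the MC26 libraries. Of these, only CNTN1 and AC245128.1, a gene without a position, are not KIR genes. Both were named after values were seen.

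Among the genes lost, ADD2, the beta-adducin of the spectrin and actin skeleton, had 2369, 742 and 2672 counts in CT and 0 in every M1B26 library. The zinc finger gene ZNF302 read 2.49, 3.71 and 2.04 CPM in CT, and ZNF630 read 1.23, 1.70 and 1.20 CPM, and both had 0 counts in M1B26. LRIF1, a partner of the nuclear receptor RARA and of inactive X chromatin, was at least 58.6-fold lower, ARMCX3, a mitochondrial outer membrane protein, at least 50.9-fold lower, and KIF26A, a kinesin-like protein, at least 32.0-fold lower. CXCR4, the receptor of the chemokine CXCL12, had 135, 38 and 150 counts in CT and 0, 1 and 0 in M1B26, a ratio of 260 (95% counting interval 46.3 to 10300). Of the 15 genes, 7 were at the limit in MC26 as well. In RefSeq promoters of 300 bases, the 11 such genes with an entry had a median of 27.0 CG pairs, against 26 over 10946 tested genes. Of the 22 genes at the limit in CT, the 17 with an entry, KIR genes among them, had a median of 13.0 CG pairs, also without the KIR genes. The ranges overlapped almost fully, from 1 to 43 pairs in the genes lost and from 0 to 38 in the genes gained. The stretches before ADD2 (chr2:70768201-70768350, minus strand, GRCh38.p14) and ALDH1A1 (chr9:72953054-72953203, minus strand) are shown because these genes had 0 counts in a whole group, with CG pairs in capitals.
ADD2: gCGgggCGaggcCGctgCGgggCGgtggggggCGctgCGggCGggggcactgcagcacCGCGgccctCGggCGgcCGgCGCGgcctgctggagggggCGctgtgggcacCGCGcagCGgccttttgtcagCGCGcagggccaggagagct
ALDH1A1: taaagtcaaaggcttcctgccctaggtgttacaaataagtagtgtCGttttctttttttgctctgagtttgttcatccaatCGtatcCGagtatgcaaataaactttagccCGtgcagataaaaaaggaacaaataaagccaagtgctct

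Chemokines and the IL1 family formed the inflammatory part of the change. Chemokines draw leukocytes, and NF-kB, a transcription factor that IL1 activates, is known to drive many of their genes from a site near the start. Of 8 chemokines tested, 6 rose and none fell, with a median log2 fold change of 2.39 against 0.00 for all genes. The promoters of CXCL1, CXCL2 and CXCL3, which draw neutrophils, are shown, since these genes moved together. CXCL8, which also draws neutrophils and also rose, is not shown. Capitals mark matches to the NF-kB consensus, which lie on both strands and overlap, in CXCL1 (chr4:73869273-73869392, plus strand), CXCL2 (chr4:74099196-74099315, minus strand) and CXCL3 (chr4:74038690-74038809, minus strand). All are RefSeq stretches of 120 bases before the start, GRCh38.p14.
CXCL1: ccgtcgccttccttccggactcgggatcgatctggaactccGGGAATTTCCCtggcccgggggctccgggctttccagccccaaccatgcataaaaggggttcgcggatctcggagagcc
CXCL2: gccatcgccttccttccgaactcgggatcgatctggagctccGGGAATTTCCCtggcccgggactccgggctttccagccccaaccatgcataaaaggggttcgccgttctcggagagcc
CXCL3: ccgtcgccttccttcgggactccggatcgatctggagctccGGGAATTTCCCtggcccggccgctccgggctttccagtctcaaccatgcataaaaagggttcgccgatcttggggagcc
The consensus was found in 5.72% of 27305 promoters of 300 bases and in 6.47% of those of tested genes. CCL20 also held a match, and CXCL8 and CCL28 held none. The search used this consensus only, so a missing match does not show that a promoter lacks an NF-kB site.

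CXCL1 read 29.2, 31.6 and 29.5 CPM in CT and 221, 204 and 239 CPM in M1B26, or 2.88 higher on the log2 scale (SE 0.21), at an edgeR adjusted p of 2.33e-06. CXCL2 went from 6.95, 6.29 and 5.75 CPM to 24.6, 23.2 and 27.9 CPM, and CXCL3 from 1.43, 1.005 and 1.37 CPM to 16.8, 19.03 and 18.2 CPM. CXCL8 (interleukin-8) went from 3.93, 4.67 and 3.88 CPM to 21.7, 24.6 and 26 CPM. The 3 M1B26 values were close together and far above CT for each of the 4 genes. CCL20, which draws dendritic cells and Th17 cells, rose by 2.62 on the log2 scale (SE 0.22), and CCL2, which draws monocytes, by 2.22 (SE 0.38). CCL28 (0.13, SE 0.13) and CXCL16 (-0.29, SE 0.16) did not pass, though CXCL16 was called lower with length and GC offsets. Set beside MC26 in a direct test of the lines, M1B26 was higher by 1.83 for CXCL1, 1.38 for CXCL2, 0.88 for CXCL3 and 1.79 for CXCL8 on the log2 scale, the highest adjusted p being 0.000971 by edgeR; 39.5% of all tested genes passed that test.

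Of 16 genes of the IL1 family and its receptors, 10 rose and 2 fell. IL1B read 15.5, 14.3 and 13.7 CPM in CT and 248, 202 and 306 CPM in M1B26 (log2 fold change 4.12, SE 0.18), and IL1A rose by 3.03 (SE 0.15). The alarmin IL33 went from 0.0857, 0.131 and 0.110 CPM to 4.49, 3.08 and 2.29 CPM, and IL1RL1, its receptor, rose by 4.53 with a wide spread (SE 0.96). The members that fell, IL1R1 (-1.05, SE 0.07), the signalling receptor, and IL1RN (-1.37, SE 0.41), the receptor antagonist, were named after their values were seen. The groups overlapped for IL1RN, and its call was lost without CT replicate 3 and without M1B26 replicate 1 or 2. Of 24 NF-kB subunits and targets, 14 rose and 3 fell, with a median of 0.38. TNFAIP3 (A20), an inhibitor that NF-kB induces, rose by 2.09 (SE 0.11), NFKBIZ by 1.77 (SE 0.16) and the adhesion molecule ICAM1 by 1.22 (SE 0.12). The members that fell, named after their values were seen, were the targets TNFAIP2 and TRAF1 and the deubiquitinase CYLD, at -1.07, -1.23 and -0.46.

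Of 20 genes of MHC class I antigen presentation, 15 rose and none fell, with a median log2 fold change of 0.35. HLA-F rose by 1.04 (SE 0.12), HLA-B by 0.87 (SE 0.14) and the immunoproteasome subunits PSMB10 and PSMB9 by 0.84 and 0.87. Of 40 interferon-stimulated genes, 13 rose and 7 fell, with a median of 0.25. IFI35 rose by 1.44, on chromosome 17, and HERC5, a ligase for ISG15, fell by 1.68. Of 19 acute phase and complement genes 8 rose and 2 fell. Complement factor I (CFI) went from 2.53, 3.10 and 2.33 CPM to 24.8, 29.7 and 20.4 CPM, C1S rose by 2.40 (SE 0.29) and C1R by 2.13 (SE 0.35), while the protease inhibitor TIMP1 fell by 1.37 (SE 0.10) and complement C5, named after its value was seen, by 1.31 (SE 0.18).

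Of 29 TNF superfamily ligands and receptors, 13 rose and 4 fell. TNFRSF6B, the soluble decoy receptor DcR3, read 28.4, 17.7 and 35.1 CPM in CT and 331, 344 and 365 CPM in M1B26. Of 19 serpins, a family of protease inhibitors, 14 rose and 2 fell, with a median of 0.69. The falls, named after values were seen, were SERPINA5 (-1.23, SE 0.15) and SERPINE2 (-0.86, SE 0.15). SERPINB2, the plasminogen activator inhibitor PAI-2, went from 0.10, 0.175 and 0.342 CPM to 8.88, 4.52 and 8.42 CPM. SERPINB4 and SERPINB3, the squamous cell carcinoma antigens, rose by 5.29 (SE 0.95) and 3.82 (SE 0.61). These copies are nearly alike, so their split is uncertain. SERPINB13, SERPINB4, SERPINB3, SERPINB7 and SERPINB2 are neighbours on chromosome 18 (chr18:63586989-63903888), and each was called at least 2-fold higher, SERPINB13 not without CT replicate 3. Of 13 S100 genes, 8 rose and 2 fell, the falls being S100A4 (-2.58, SE 0.29) and S100A10 (-0.71, SE 0.09), the latter named after its value was seen. S100A8 showed how far the M1B26 libraries could differ, at 92.3, 128 and 524 CPM against 46.2, 36.4 and 41.8 CPM in CT. Without M1B26 replicate 3 the call for S100A8 was lost.

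Of 9 tested genes from a list of actin and granule proteins typical of blood cells, 6 rose and 3 fell. Besides SAMSN1 and LCP1, the proteoglycan SRGN rose from 5.97, 7.73 and 5.76 CPM to 29.5, 34.9 and 33.2 CPM and the GTPase RAC2 rose by 0.82 (SE 0.11). LAPTM5, a lysosomal protein of lymphocytes, fell by 1.92 (SE 0.24). In bulk RNA a gene read in few cells and a gene read weakly in all cells cannot be told apart. Leukocyte markers were uneven. PTPRC and CD3E had 0 to 2 counts, while CD14, a monocyte marker, read 10.97, 6.90 and 9.36 CPM in CT and 33.9, 33.8 and 47.9 CPM in M1B26 (log2 fold change 2.06, SE 0.23). CSF1R (-0.04, SE 0.28) did not pass, and CD74 had 10, 5 and 83 counts in M1B26 against 1, 1 and 4 in CT. Their part in the rise of the listed genes was not tested.

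Of 19 BMP targets and feedback inhibitors tested, 9 rose and 3 fell, with a median of 0.63. GATA2, a transcription factor, read 0.300, 0.218 and 0.476 CPM in CT and 4.69, 5.25 and 4.75 CPM in M1B26. ATOH8, another BMP target, fell from 4.96, 5.94 and 7.44 CPM to 0.451, 1.11 and 1.51 CPM. Of 21 ligands, receptors and SMADs, 5 rose and 7 fell. BMPR1B, the receptor used to sort the cells of origin, was at 11.4, 15.2 and 11.3 CPM in CT and 8.14, 8.02 and 8.48 CPM in M1B26 (log2 fold change -0.61, SE 0.12, adjusted p 0.00189 by edgeR), and BMPR2 fell by 0.66 (SE 0.11). BMPR1A (-0.08, SE 0.08) did not pass. SMAD9 rose by 0.78 (SE 0.16) and GDF11, a ligand, by 0.84 (SE 0.11), while the co-receptor RGMA fell by 2.03 (SE 0.26). Of 31 genes of the IL6 family and STAT3, 7 rose and 9 fell. LIFR, the receptor of leukaemia inhibitory factor, fell by 2.09 (SE 0.17), JUNB rose by 1.48 (SE 0.13) and STAT3 by 0.37 (SE 0.09). STAT3 lies on chromosome 17, where the median log2 fold change of all tested genes was 0.48. Without the 4 list members on that chromosome, 4 rose and 9 fell.

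Keratins and basal markers changed gene by gene, not as a block. Of 17 basal markers, 8 rose and 4 fell. KRT14 read 58.3, 42.2 and 61.7 CPM in CT and 461, 558 and 625 CPM in M1B26, TP63 rose by 1.30 (SE 0.08), KRT6B by 2.12 (SE 0.16) and the hemidesmosome collagen COL17A1 by 1.46 (SE 0.14). KRT5, the partner of KRT14, fell by 0.42 (SE 0.10). KRT15 went from 158, 114 and 148 CPM to 21.5, 18.1 and 37.6 CPM, although it lies beside KRT14 on chromosome 17. KRT80 fell by 2.68 (SE 0.16), KRT16 by 1.77 (SE 0.37), and KRT18 (0.03, SE 0.07) did not pass, but was called lower (-0.15) with length and GC offsets. Keratin genes have close copies, so small changes among them are uncertain. Of 18 luminal markers, 4 rose and 7 fell, with a median of 0.03. Among those that fell were the mucin MUC1 at -1.68 (SE 0.27), the receptor ERBB3 at -1.25 (SE 0.20) and the transcription factor GATA3 at -1.18 (SE 0.11). The estrogen receptor ESR1 rose by 2.05 (SE 0.33) at a low level, from a mean of 0.096 CPM in CT to 0.41 CPM in M1B26. EPCAM (0.04, SE 0.16) did not pass. Of 8 myoepithelial contractile genes, 5 fell and none rose, among them MYLK (-1.21, SE 0.22), TPM1 (-0.62, SE 0.10) and CALD1 (-0.39, SE 0.08), while ACTA2 (-0.01, SE 0.13) did not pass.

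Lists of cell contact genes differed. Of 18 tight junction genes, 5 rose and 7 fell, and of 8 gap junction connexins, 3 rose and 2 fell. Of 12 desmosome genes, 6 fell and none rose, but with length and GC offsets 5 fell and 2 rose. Besides PPL, the plaque protein DSP read 688, 707 and 666 CPM in CT and 326, 298 and 363 CPM in M1B26. PKP2 fell by 0.96 (SE 0.11). Of 8 cadherins, 6 fell and 1 rose, with a median of -0.68. CDH1 (E-cadherin) read 86.2, 75.3 and 67.6 CPM in CT and 42.8, 34.2 and 55.3 CPM in M1B26, and CDH2 (N-cadherin) read 29.9, 34.7 and 32.6 CPM against 9.42, 8.31 and 12 CPM. Both groups were apart for each gene. CDH4, the cadherin that rose (0.44, SE 0.14), lost its call in 4 settings. Of 14 genes of the mesenchymal transition, 6 fell and 2 rose: ZEB2 fell by 1.501 (SE 0.21), FOXC2 by 1.89 (SE 0.17) and MMP2 by 1.59 (SE 0.21), while SNAI2, named after its value was seen, rose by 1.32 (SE 0.17) and FN1 by 0.79 (SE 0.29). The call for FN1 was lost in 8 alternative settings. VIM (-0.21, SE 0.12) did not pass.

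Of 21 integrins 10 rose and 6 fell. The hemidesmosome integrin ITGB4 (chromosome 17) rose by 1.21 (SE 0.12) and ITGA6, its partner, by 0.93 (SE 0.10), while ITGA4 fell by 2.15 (SE 0.12) and ITGB8 by 1.56 (SE 0.23). Among 26 matrix glycoproteins 10 fell and 7 rose. VCAN (versican) fell from 150, 189 and 167 CPM to 38.2, 35.5 and 62.4 CPM and FBLN1 from 288, 253 and 301 CPM to 59.9, 67.9 and 75.02 CPM, while LUM (lumican) went from 0.0714, 0.131 and 0.122 CPM to 4.76, 6.20 and 4.38 CPM. Of 23 collagens 8 fell and 5 rose, with COL12A1 at -2.74 (SE 0.20) and COL7A1 at -2.58 (SE 0.23). LUM and FBLN1 are on the list of fibroblast markers too, where 4 of 7 tested genes rose and 1 fell, and the summed level of that list was 326.8 to 375.4 CPM in CT and 146.6 to 180.4 CPM in M1B26. Of 31 actin, spectrin and adducin genes 15 fell and 5 rose.

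Of 27 aldo-keto reductases and NRF2 targets, 13 fell and 2 rose, with a median of -0.33. NRF2 is the transcription factor that answers to oxidants. AKR1C2 read 308, 319 and 335 CPM in CT and 38.1, 55.1 and 75.4 CPM in M1B26, TXNRD1 fell by 1.20 (SE 0.16) and FTH1, the ferritin heavy chain, by 1.36 (SE 0.24). AKR1C copies are nearly alike and can share reads. Of 21 cytochrome P450 genes, 11 fell and 5 rose, with CYP4B1 at 7.04, 6.46 and 5.65 CPM in CT and 0.158, 0.189 and 0.203 CPM in M1B26. Of 17 aldehyde dehydrogenases 7 fell and 6 rose, so ALDH1A1 moved against ALDH3A1 (-2.22, SE 0.32) and ALDH3B1 (-1.94, SE 0.18).

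Ribosomal protein genes rose almost without exception. Of 84 cytosolic ribosomal protein genes tested, 80 rose and 1 fell, with a median log2 fold change of 0.59. RPL27 read 530, 495 and 511 CPM in CT and 1303, 1303 and 1117 CPM in M1B26. RPL38 rose by 1.18 (SE 0.09), RPS21 by 1.12 (SE 0.11) and RPL26 by 1.09 (SE 0.08). The member that fell was the paralog RPL39L (-3.96, SE 0.52), and RPL22, RPL7L1 and RPS27L did not pass (RPL22 did without CT replicate 2, and RPS27L without M1B26 replicate 3 or with offsets); these 4 are named after values were seen. Of 78 mitochondrial ribosomal proteins, 60 rose and 1 fell, with a median of 0.39, and the 4 with the largest rises (MRPL58, MRPS23, MRPL38 and MRPL12) all lie on chromosome 17. Of 37 proteasome subunits 28 rose and 1 fell, with PSMB3 at 1.13 (SE 0.08). The members that fell, MRPS5 (-0.20, SE 0.06) and PSMD1 (-0.19, SE 0.07), were named after values were seen and lay above 0 with length and GC offsets. The call was lost in 5 settings for MRPS5 and in 11 for PSMD1. Without chromosome 17 members the medians were 0.57, 0.38 and 0.29. The median exonic lengths of the 3 lists were 3208, 2544 and 4313 bases. These lengths join all exons of all transcripts of a gene, so a single RNA can be shorter. The offsets use the same lengths and need not remove the whole length trend from these lists. With offsets for length and GC content the median log2 fold changes were 0.41, 0.25 and 0.31, with 67, 44 and 26 members higher.

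Nuclear and mitochondrial genes of respiration went opposite ways. Of 77 nuclear subunits of oxidative phosphorylation, 43 rose and 2 fell, with a median of 0.29, and with length and GC offsets 25 rose and 11 fell at a median of 0.09. The members that fell, NDUFS1 (-0.29, SE 0.07) and SDHA (-0.33, SE 0.08), were named after values were seen, and NDUFS1 lost its call with offsets. Of 13 genes encoded by mitochondrial DNA, none rose and 8 fell, with a median of -0.44, and all 13 were lower with offsets. MT-ND3 read 224, 233 and 238 CPM in CT and 150, 152 and 121 CPM in M1B26. MT-CO2 fell by 0.39 (SE 0.15), a call lost in 6 settings. Of 19 genes of the TCA cycle, 9 fell and 1 rose (SUCLG1, 0.26, SE 0.06, named after its value was seen), with PC, pyruvate carboxylase, at -0.69 (SE 0.17). Of 17 cytosolic aminoacyl-tRNA synthetases 8 fell and none rose, so they did not follow the ribosomal proteins. With length and GC offsets 7 fell and 3 rose. EPRS1 fell by 0.65 (SE 0.10).

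Cell cycle genes split by phase. Of 48 genes of S phase and replication, 25 rose and 4 fell, with a median of 0.23. GINS2, a helicase subunit, read 35.5, 35.9 and 35.3 CPM in CT and 68.3, 67.7 and 63.3 CPM in M1B26. Of 47 G2/M and spindle genes, 16 fell and 4 rose, with a median of -0.22, and 28 fell with length and GC offsets. CENPF, a kinetochore protein, read 361, 492 and 391 CPM in CT and 185, 181 and 205 CPM in M1B26, and MKI67 fell by 0.84 (SE 0.11) and ASPM by 0.89 (SE 0.13). BIRC5 (survivin) rose by 0.85 (SE 0.08), as did AURKB, MAD2L1 and BUB3, named after values were seen, by 0.80, 0.40 and 0.18. BIRC5 and AURKB lie on chromosome 17. The call for BUB3 was lost in 9 settings. TOP2A, also on chromosome 17, did not pass (-0.06, SE 0.11). Of 27 replication-dependent histones tested, 9 fell and 1 rose (H4C11, 0.69, SE 0.22, named after its value was seen, a call lost in 4 settings that left out a library), and 14 fell with offsets. Their RNAs lack a poly-A tail, so poly-A libraries read them poorly. Of 24 G1 cyclins, CDKs and inhibitors tested, 4 rose and 9 fell, with a median of -0.14. CCND2, a cyclin of G1, went from 4.77, 5.15 and 3.70 CPM to 45.6, 45.5 and 47.7 CPM. The inhibitor CDKN1C fell by 2.91 (SE 0.42), while CDKN1A, another inhibitor, rose by 0.56 (SE 0.10).

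Genes of chromosome 17 were higher along its whole length. Of 851 tested genes, 546 (64.2%) rose and 57 (6.70%) fell, and the median log2 fold change was 0.48. Medians of the other chromosomes with nuclear genes ran from -0.10 (chromosome 13) to 0.09 (chromosome 19). In windows of 5 Mb, the lowest of 17 medians was 0.29 and the highest 0.75. Relative to the mean of CT, the median of chromosome 17 genes was 0.43, 0.42 and 0.43 in the M1B26 libraries, 0.03, -0.08 and 0.04 in CT and 0.01, -0.01 and 0.01 in MC26 (log2 CPM). All M1B26 libraries lay above all others, and the exact permutation test of 3 against 3 gave p = 0.1, 2-sided, the smallest it can give. Chromosome 17 was singled out because its genes were already known to be raised in these data. This separation is therefore a description and lends no further support. With CT replicate 2, the shallow library, left out, the fitted median was 0.44. DNA copy number was not measured, and its part was not tested.

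The most abundant genes of the chromosome followed the shift. ACTG1, the cytoplasmic gamma-actin, rose by 0.66 (SE 0.16), FASN, fatty acid synthase, by 0.56 (SE 0.12), PFN1, profilin, by 0.94 (SE 0.11), RPL19 by 0.80 (SE 0.09), EIF4A1 by 0.65 (SE 0.05) and EIF5A by 0.61 (SE 0.07), both translation factors. ITGA3 (1.37, SE 0.09) and ITGB4 went beyond it. ERBB2 read 76.9, 66.7 and 80.9 CPM in CT and 102, 96.5 and 100.2 CPM in M1B26. BRCA1 (0.06, SE 0.09) did not pass, though it did with offsets. Besides KRT15, KRT16, ALDH3A1 and PRR15L (-4.02, SE 0.58), the collagen receptor MRC2 also fell, by 2.19 (SE 0.10), and was named after its value was seen. In all, 110 genes of the chromosome were at least 2-fold higher and 32 at least 2-fold lower.

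**Figure D3:**
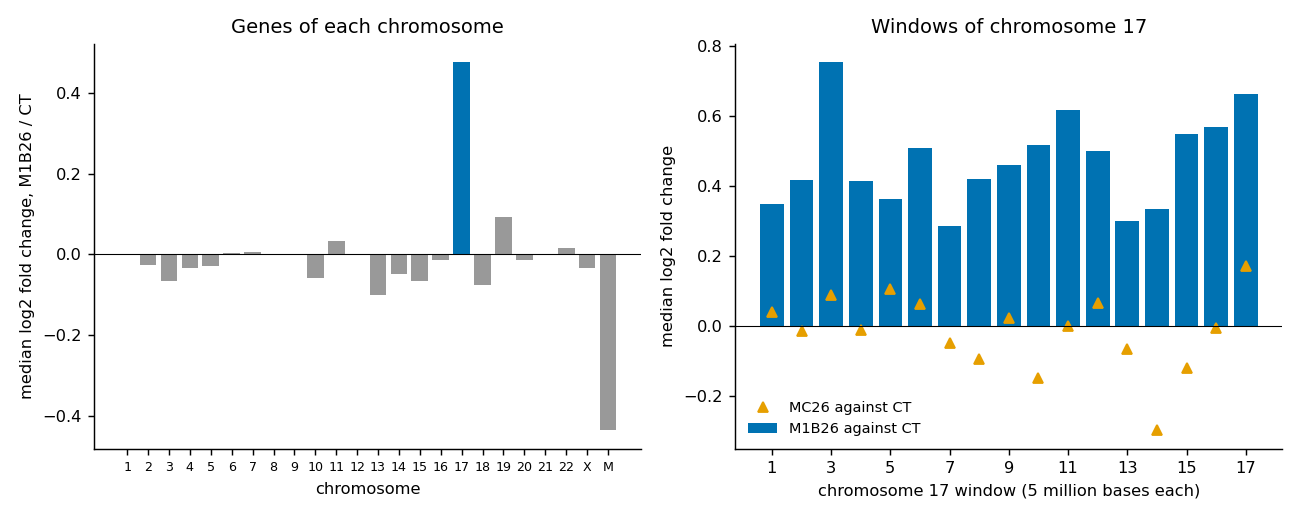
Left, median log2 fold change of M1B26 against CT for the tested genes of each chromosome (M, mitochondrial). Right, the same for 17 consecutive windows of 5 Mb along chromosome 17, with MC26 against CT as triangles. Every window of chromosome 17 is above 0 in M1B26, between 0.29 and 0.75.

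Short transcripts were higher and long transcripts lower. In 10 groups of equal size made from 14051 genes ordered by exonic length, the median log2 fold change fell from 0.24 in the shortest group (up to 1938 bases) through 0.03 in the fifth group to -0.20 in the longest (12106 bases and more). In the shortest group 38.3% of genes rose and 9.67% fell, and in the longest 15.3% rose and 46.2% fell. Without chromosome 17 genes the ends were 0.22 and -0.22, and 76 genes belong to both the chromosome and the shortest group. Per library, the median of the shortest group relative to CT was 0.20, 0.23 and 0.18 in M1B26, 0.04, -0.09 and 0.05 in CT and 0.03, 0.04 and 0.07 in MC26. M1B26 again lay above all others (exact permutation p = 0.1, 2-sided, the smallest possible). Short transcripts were also singled out because they were already known to be raised, so this too is a description. CT replicate 2, the shallowest library, was the lowest, and without it the fitted median was 0.20. With offsets for length and GC content, which take out such a trend by construction, the median was -0.03.

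The most abundant short genes did not all move alike. S100A2, a calcium-binding protein of basal cells, rose by 1.67 (SE 0.19), TMSB10, an actin-binding thymosin, by 0.77 (SE 0.11), MT2A, a metallothionein, by 0.68 (SE 0.11) and S100A6 by 0.48 (SE 0.08). KRT81 (-0.08, SE 0.12), which was called lower with offsets, MT-CO1 (-0.34, SE 0.13) and MT-CO3 (-0.17, SE 0.12) did not pass. MT-CO1 was called lower in 7 settings, DESeq2 and the replicate block included, and MT-CO3 with offsets. Library fragment size and RNA quality were not given in the sources used here, and their part in the trend was not tested.

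**Figure D4:**
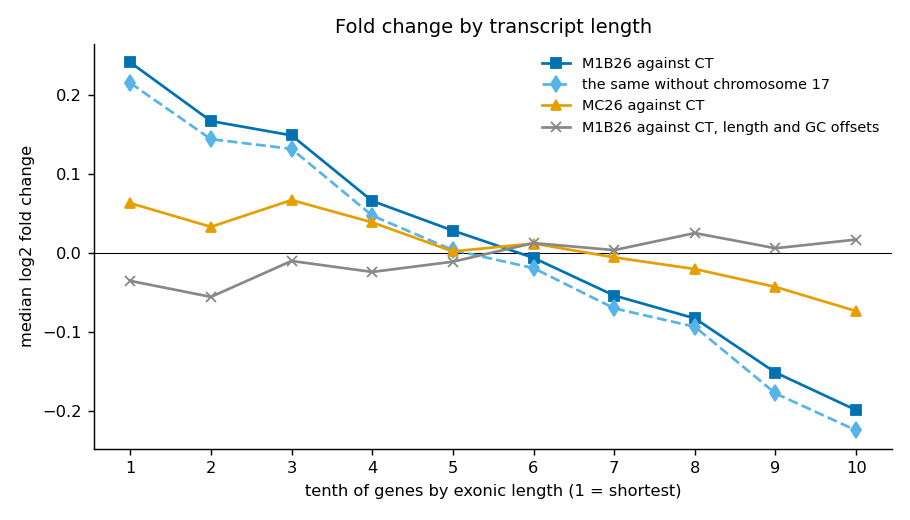
Median log2 fold change in 10 groups of genes by exonic length, from shortest to longest, for M1B26 against CT with all genes, without chromosome 17 and with length and GC offsets, and for MC26 against CT. The M1B26 line falls from 0.24 to -0.20, and the line with offsets stays near 0.

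**Figure D5:**
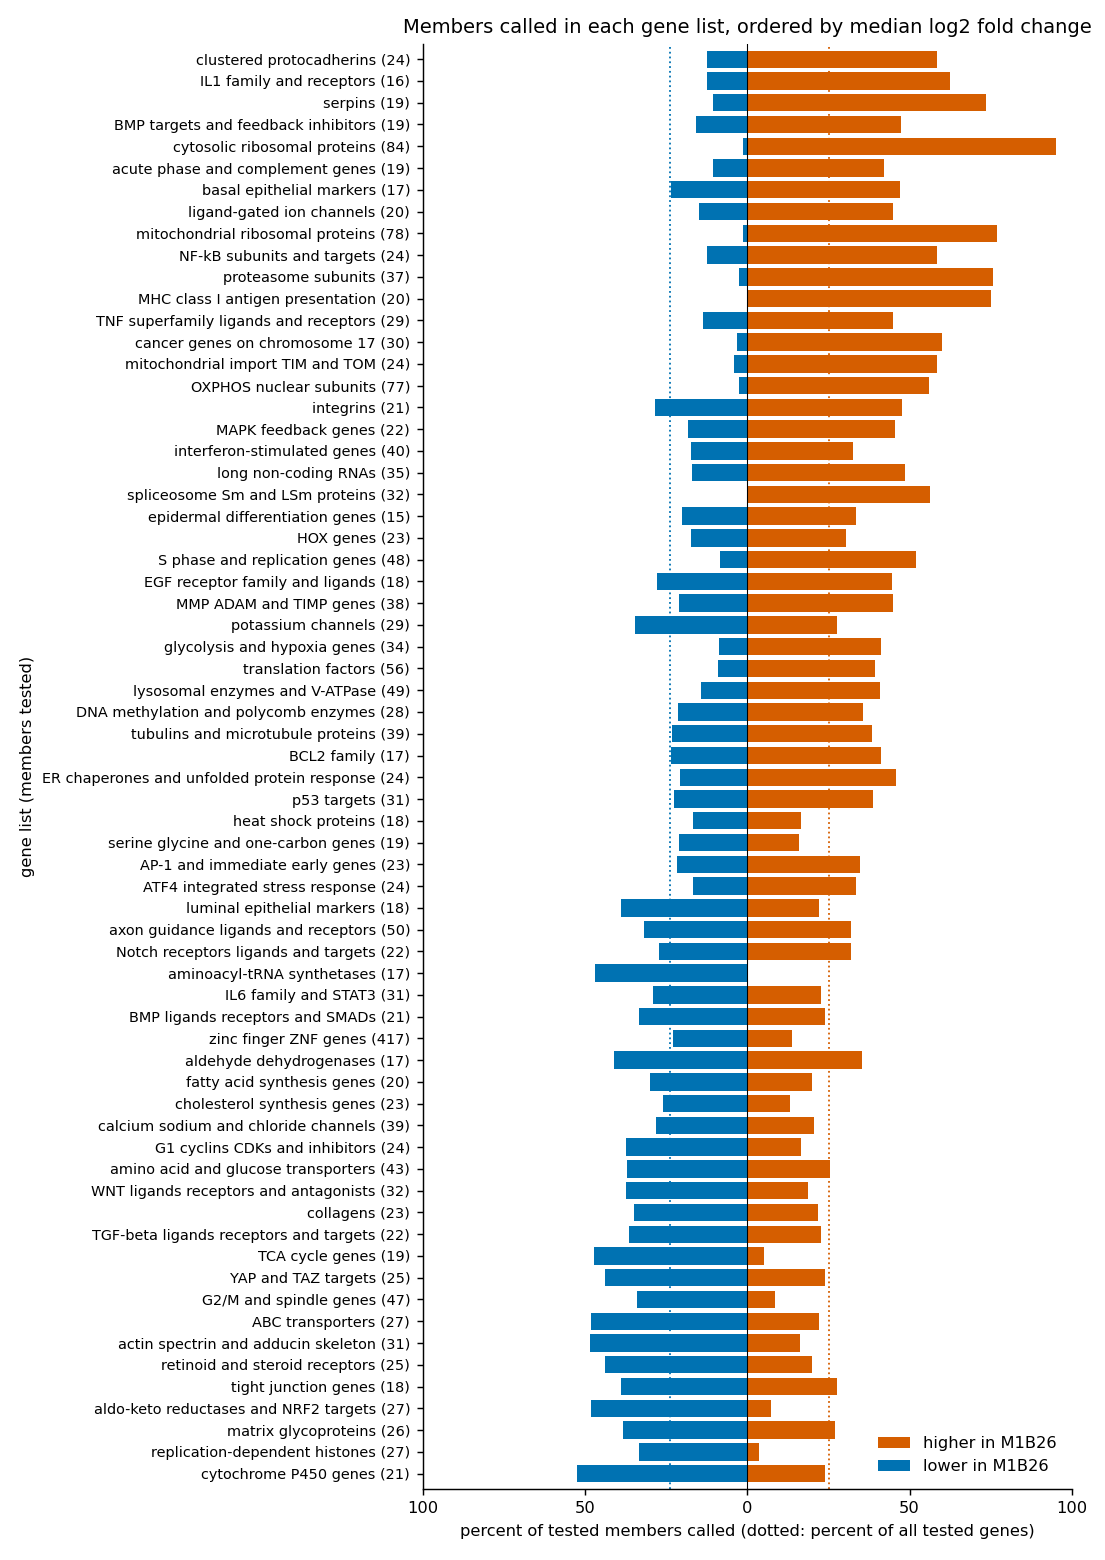
Percent of tested members called higher (right) or lower (left) in each gene list with 15 or more tested members, ordered by median log2 fold change, with the share of all tested genes as dotted lines at 25.2% and 23.7%. Ribosomal proteins reach furthest right, with 80 of 84 members higher.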

How the data were processed

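Poly-A RNA from 3 cultures each of CT, MC26 and M1B26 was read as read pairs. The deposited table holds whole-number read counts per gene symbol, not normalized. The authors' methods name STAR 2.7.3a and Salmon 1.1.0 with GRCh38; the program that made these counts, its strand setting and its treatment of shared reads are not given in the sources used here, so overlapping, antisense and paralogous genes are uncertain.

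All 9 columns were used. Library depth was 21425118 to 80076597 counts; intervals and floors (3 counts) cover counting error only. Genes passing filterByExpr of edgeR 4.0.16 (R 4.3.3, limma 3.58.1) were fitted over the 9 libraries in 3 groups with TMM factors and the quasi-likelihood test, with Benjamini-Hochberg adjusted p under 0.05 over 15717 genes. SE is the log2 fold change over the root of F. Per-library medians used log2(CPM + 0.5). Positions, exonic lengths and GC content came from GENCODE v44 on GRCh38: 37427 of 60199 symbols matched (504 through an older RefSeq symbol), holding 99.26% of counts, and 89.4% of tested genes had a length.

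The 86 gene lists and the members were chosen with earlier results of these data known. Named genes were the 12 highest and 12 lowest log2 fold changes among protein-coding genes called at 2-fold or more whose groups were apart and averaged 5 CPM or more, up to 4 called members per list by size of change at 1 CPM or more (every member of lists with up to 12 tested genes), a fixed set of pathway, keratin and cancer genes, and the 8 most abundant genes of chromosome 17 and of the shortest length group. Genes outside the rule are marked in the text. Alternatives were DESeq2 1.42.0, other scalings and filters, offsets for length and GC content, a replicate block and leaving out each library. Scripts were tested on simulated data. The motif search was chosen after the data were seen. Promoters are RefSeq, GRCh38.p14, with identity from Biopython 1.88 global alignment. Results for some genes are not reported here.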

Additional observations from a re-analysis of the deposited data

Results flagged for a closer look

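For 13 of the 24 genes with the largest changes, the change from CT differed between M1B26 and MC26, by the direct test of M1B26 against MC26 in the same edgeR fit (adjusted p under 0.05, which 39.5% of tested genes passed). These genes were picked for their change in M1B26, which favours such a difference. M1B26 was higher than MC26 on the log2 scale by 3.67 for ALDH1A1, 2.80 for SAMSN1, 1.51 for CHRNA9, 1.41 for IL1B, 0.98 for CSF3, 0.55 for GRAMD1B and 1.69 for VIPR1, which fell in both lines. For genes near 0 counts in MC26 the fitted values depend on the prior count and are no bounds: 9.04 for KIR2DS4, 9.34 for KIR2DL3, 8.57 for KIR2DL4 and 9.30 for KIR3DL1. M1B26 was lower by -2.90 for VSTM2L, and the fitted value for ADD2, at 0 counts in M1B26, was -13.81. Groups of 3 libraries are too small for a test of single outlying samples.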

How the results depend on the processing

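The counts of 3959 higher and 3729 lower genes stayed within 1.5 times under other scalings, filters, DESeq2 and each library left out. The exceptions were adjusted p under 0.01 (2478 lower) and glmTreat at 1.5-fold (935 and 790). Leaving out each library gave 3228 to 3791 higher and 2970 to 3652 lower genes. Total counts alone gave 3094 and 4729, length and GC offsets 4118 and 4080, and no filter 4275 and 3719. At 2-fold, 946 and 897 genes became 541 and 510 with a mean of at least 50 counts, which tests fewer genes, and 900 to 951 and 845 to 931 without each library. The chromosome 17 median of 0.48 was 0.38 with total counts, 0.49 with TMM without its genes, 0.49 with no filter, 0.44 with length and GC offsets (0.44 with the replicate block too), 0.46 without the shortest genes and 0.44 to 0.49 without each library. The median of the shortest length group (0.24) was 0.15 with total counts, 0.27 by longest transcript and 0.20 to 0.27 without each library, and reversed to -0.0349 with offsets and -0.0327 with the replicate block too, as offsets remove the trend by construction. KRT18 became -0.15 with offsets (-0.15 with the block too) and CD44 0.14 with both, MRPS5 0.0142 and 0.0186, and PSMD1 0.0612 and 0.0609; the cause was not tested. Of 488 named genes, 414 kept their call in every alternative, and 36 changed it with offsets. Same-numbered libraries did not deviate together (r 0.05, -0.08 and -0.17 over 10637 genes), so numbers do not pair them; with the replicate block, 7513 genes were called, and 10 named genes changed. Depth limits genes near 3 counts, 0.131 CPM in CT replicate 2.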

Other observations

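Counts for some gene families outside the comparisons above are given here, to be read against 25.2% higher and 23.7% lower among all tested genes. Of 24 clustered protocadherins, cell-surface proteins of neurons, 14 rose and 3 fell, with a median log2 fold change of 0.82. PCDHB16, PCDHB9, PCDHB10, PCDHB12 and PCDHB13 lie side by side on chromosome 5 (chr5:141182387-141218979) and each rose at least 2-fold, PCDHB16 from 0.314, 0.480 and 0.549 CPM to 2.41, 2.39 and 1.94 CPM, while PCDHGA12 fell by 1.85 (SE 0.34). PCDHB9, PCDHB10 and PCDHB12 were named after their values were seen, and these genes have close copies. The call for PCDHB9 was lost without CT replicate 1 or 3 and without M1B26 replicate 3. Of 23 HOX genes 7 rose and 4 fell, and without the 5 members on chromosome 17, 3 rose and 4 fell. HOXB6, on chromosome 17, read 1.46, 1.57 and 1.64 CPM in CT and 11.9, 12.4 and 10.6 CPM in M1B26, and HOXB2, HOXB3 and HOXB4, its neighbours, rose by 1.42, 0.80 and 1.14. Of 417 zinc finger genes 95 fell and 57 rose, with a median of -0.07. Neither share was above that of all tested genes.

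Among growth factor and transport genes, EREG (epiregulin), a ligand of the EGF receptor, read 20.7, 27.4 and 21.6 CPM in CT and 92.3 to 108 CPM in M1B26, and NRG1 (neuregulin) rose by 2.03 (SE 0.26), while EGFR fell by 0.48 (SE 0.09) and LRIG1, an inhibitor of the receptor, by 1.95 (SE 0.23). TGFB2 fell from 8.07, 9.87 and 8.70 CPM to 0.654, 0.615 and 0.813 CPM. MAP1B, a microtubule protein of neurons, fell from 6.03, 8.21 and 8.504 CPM to 0.135, 0.0947 and 0.166 CPM. The Notch ligand DLL1 rose by 3.45 (SE 0.31) and JAM3, a junction adhesion molecule, by 3.69 (SE 0.20). MME, which encodes CD10, read 6.53, 8.34 and 6.14 CPM in CT and 44.2, 51.6 and 43.8 CPM in M1B26.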
